A study of Mus musculus with 18 samples.

Results

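The Toll-like receptor genes were described in bone marrow-derived macrophages (BMDMs) that shared a coculture with kidney tubule cells exposed to crystals. The 10 receptors were Tlr1, Tlr2, Tlr3, Tlr4, Tlr5, Tlr6, Tlr7, Tlr8, Tlr9 and Tlr13. The rule picks them by gene symbol, with no measured value in it, but earlier results of these data were known when they were chosen. They make up 10 of the 25926 genes with RNA-seq values. All 18 samples were BMDMs of C57BL/6J mice, grown for 7 days in 50 ng/mL M-CSF, and were kept in a Transwell insert (pore size 0.4 μm) over renal tubular epithelial cells (TECs) of wild-type mice. In the 6 NC samples the BMDMs received PBS and the TECs were untreated. In the 6 COM samples the BMDMs again received PBS, and the TECs below had been exposed for 24 h to calcium oxalate monohydrate (COM), the main crystal of kidney stones, at 100 μg/mL. In the 6 COM+Met samples the BMDMs were given 5 mM Met for 24 h and then met TECs treated with COM. The sample labels do not spell Met out, and there was no group with Met and untreated TECs, so a value of COM+Met cannot be split into a part of Met alone. Separate mice or cultures are not stated for the samples of a group, and p-values therefore cover sample-to-sample spread alone, part or all of which may be technical.

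Toll-like receptors are membrane proteins with which macrophages sense microbes and damaged cells. Tlr1, Tlr2, Tlr4, Tlr5 and Tlr6 act at the cell surface, where Tlr2 pairs with Tlr1 or Tlr6 to bind bacterial lipopeptides, Tlr4 binds lipopolysaccharide and Tlr5 binds flagellin. Tlr3, Tlr7, Tlr8, Tlr9 and Tlr13 sit in endosomes and read nucleic acids: double-stranded RNA for Tlr3, single-stranded RNA for Tlr7 and Tlr8, unmethylated CpG DNA for Tlr9 and bacterial ribosomal RNA for Tlr13. All of them except Tlr3 signal through the adaptor Myd88, while Tlr3 uses Ticam1 (TRIF) and Tlr4 uses both.

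Positions were taken from GENCODE M21 on GRCm38. Tlr1 (ENSMUSG00000044827, chr5:64924679-64933563) and Tlr6 (ENSMUSG00000051498, chr5:64952031-64960097) lie beside each other on the minus strand, 18467 bp apart with 0 annotated genes between them. Tlr8 (ENSMUSG00000040522, chrX:167242696-167264329) and Tlr7 (ENSMUSG00000044583, chrX:167304929-167330558) form a second pair on the minus strand, 40599 bp apart with 0 genes between. Tlr1 and Tlr6 are similar in sequence, as are Tlr7 and Tlr8, and how reads that match both members of a pair were assigned is not given in the sources used here, so the split of FPKM within a pair is uncertain. Tlr3 (ENSMUSG00000031639, chr8:45395665-45411080, minus strand) overlaps the gene Gm45542 on the opposite strand, and reads of the 2 genes cannot be told apart without strand, whose use in counting is not stated. The other members are Tlr2 (ENSMUSG00000027995, chr3:83836272-83841767, minus strand), Tlr4 (ENSMUSG00000039005, chr4:66827584-66930284, plus strand), Tlr5 (ENSMUSG00000079164, chr1:182954788-182976044, plus strand), Tlr9 (ENSMUSG00000045322, chr9:106222598-106226883, plus strand) and Tlr13 (ENSMUSG00000033777, chrX:106143204-106160493, plus strand). All 10 are annotated as protein-coding.

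RefSeq promoter windows on GRCm38.p6, each from 250 bases before a start site to 50 bases after it, were matched for 8 of the 10 receptors, in 10 windows, with none matched for Tlr4 and Tlr7. The 250 bases upstream of a start site are printed for the neighbours Tlr1 and Tlr6, whose levels diverged between the groups. Tlr1 and Tlr6 have 2 windows each, of which the one with fewer annotated exon bases is shown. The 2 stretches are unlike in place: that of Tlr1 lies at the 5′ end of the annotated gene. That of Tlr6 lies inside the annotated gene, between its exons. Both read 5′ to 3′ on the minus strand, with capitals for a match to one of the motifs named next.
Tlr1, chr5:64933559-64933808: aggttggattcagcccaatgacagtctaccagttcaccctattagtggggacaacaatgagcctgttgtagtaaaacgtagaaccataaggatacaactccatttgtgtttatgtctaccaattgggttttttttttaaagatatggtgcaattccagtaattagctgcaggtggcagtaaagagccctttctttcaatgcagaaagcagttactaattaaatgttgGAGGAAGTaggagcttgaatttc
Tlr6, chr5:64959167-64959416: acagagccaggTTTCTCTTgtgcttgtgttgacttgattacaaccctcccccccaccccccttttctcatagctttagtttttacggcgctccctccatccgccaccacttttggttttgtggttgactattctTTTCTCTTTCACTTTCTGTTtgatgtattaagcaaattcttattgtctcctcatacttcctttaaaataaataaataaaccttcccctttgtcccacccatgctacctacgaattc
The capitals are a PU.1 motif (GAGGAAGT) 23 bases upstream of the Tlr1 start site and a run of overlapping interferon regulatory factor motifs (AANNGAAA, on either strand) that begins 116 bases upstream at Tlr6, with a further one upstream of it. These matches depend on the window: the Tlr1 window not shown had an interferon regulatory factor match 54 bases upstream, and the Tlr6 window not shown had no match to the motifs searched. Both strands of the 10 windows were searched for 4 motifs. PU.1 was matched in 2 of them (3.2% of all 32851 windows), the interferon regulatory factor motif in 4 (23.9%), the NF-kB consensus in 2 (8.46%) and AP-1 (TGANTCA) in 1 (7.81%). The NF-kB matches were at Tlr2 and Tlr3, the Tlr3 match 211 bases upstream. A match is a string of letters and not evidence of binding, and the motif matches were not related to the expression values.

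The values are FPKM, that is, fragment counts scaled to transcript length and to the sample's mapped total, so levels of different genes can be compared per length. Differences between groups are on the log2(FPKM + 1) scale, which understates changes of low genes. They were tested with limma over all genes that averaged 1 FPKM or more in the samples compared, and a gene is called at an adjusted p below 0.05 with at least a 2-fold change on this scale. Read depth is unknown from FPKM. Pairs of NC samples correlated at 0.938 to 0.995, pairs of COM samples at 0.888 to 0.995 and pairs of COM+Met samples at 0.989 to 0.995 (Pearson, all genes past the filter). NC-5 and NC-6 stood apart within NC, as did COM-4, COM-5 and COM-6 within COM, and values without them are given where they changed a call or moved a value most. Of 9 macrophage markers, 8 averaged 1 FPKM or more in each group, led by Lyz2, and the sum of the list was 11200 to 15600 FPKM in NC, 10400 to 13800 in COM and 11900 to 16700 in COM+Met, with Cd163 listed at 0 in all COM+Met samples. Lyz2 makes up most of that sum. Within the list Mrc1 was called lower in COM and in COM+Met against NC (means 79.9, 3.26 and 2.62 FPKM in NC, COM and COM+Met). Fcgr1 and Adgre1 were called higher in both. Neutrophil markers (10 genes) summed to 395 to 597 FPKM in NC, 34.2 to 330 in COM and 19.5 to 45.5 in COM+Met. S100a8 had the highest mean of that list in each group (254, 169 and 23.5). Elane, Mpo and Retnlg were listed at 0 in all samples of COM and of COM+Met, but their NC means were only 0.479, 0.145 and 0.128. Camp was instead highest in COM (means 4.33, 7.93 and 3.08). Tubular epithelial markers (11 genes) summed to 10.9 to 18.2 FPKM in NC and at most 1.37 elsewhere. In NC only 1 of the 11, Cdh1 (mean 12.9), averaged 1 FPKM or more, and Krt18 and Umod were listed at 0. Stromal markers (6 genes) summed to 13.1 to 59.4 in NC, 4.59 to 36.3 in COM and 2.33 to 7.26 in COM+Met. Among them Pdgfrb was instead lowest in NC (means 1.06, 4.81 and 2.93). Conventional dendritic cell markers (5 genes) summed to between 1.69 and 10.9 over all samples. Plasmacytoid dendritic cell markers (4 genes) summed to 0.762 to 1.93 FPKM in NC, 1.1 to 3.36 in COM and 3.58 to 4.61 in COM+Met. Of these only Cox6a2 averaged 1 FPKM or more (1.03, 1.84 and 3.86 in NC, COM and COM+Met). Ccr9 was alike in the groups (0.171, 0.181 and 0.163), and Siglech and Klk1 were listed at 0 in all COM+Met samples. B cell markers (5 genes) summed to at most 0.758. The part of these other cell types in the receptor values was not tested, and in bulk RNA fewer cells of a type cannot be told apart from less RNA per cell.

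Tlr2 had the highest mean level of the 10 receptors in every group, and Tlr5 the lowest. In NC the order of mean FPKM was Tlr2 (167), Tlr13 (80.1), Tlr7 (34.8), Tlr8 (27.7), Tlr4 (19.6), Tlr6 (9.27), Tlr1 (3.89), Tlr9 (3.67), Tlr3 (2.45) and Tlr5 (0.667). The ranges of neighbours overlapped for Tlr7 and Tlr8, Tlr8 and Tlr4, Tlr1 and Tlr9, and Tlr9 and Tlr3. In COM, Tlr1 (39.7) moved from rank 7 to rank 4 by mean, behind Tlr2 (193), Tlr13 (80.6) and Tlr7 (78.7). The following levels, Tlr8 (20.7), Tlr4 (15.9), Tlr3 (13.9) and Tlr6 (12), overlapped from each to the next. The ranges of Tlr13 and Tlr7, of Tlr7 and Tlr1, and of Tlr1 and Tlr8 overlapped too. Tlr13 was higher than Tlr7, and Tlr1 higher than Tlr8, in 5 of 6 COM samples each. In COM+Met the order was Tlr2 (251), Tlr7 (67.3), Tlr1 (58.9), Tlr13 (58.7), Tlr4 (15.2), Tlr6 (11.9), Tlr3 (11.4), Tlr8 (9.58) and Tlr9 (3.88), with Tlr5 listed at 0. There Tlr1 was higher than Tlr13 in only 3 of 6 samples, and the ranges of Tlr7 and Tlr1, of Tlr6 and Tlr3, and of Tlr3 and Tlr8 also overlapped.

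**Figure D1:**
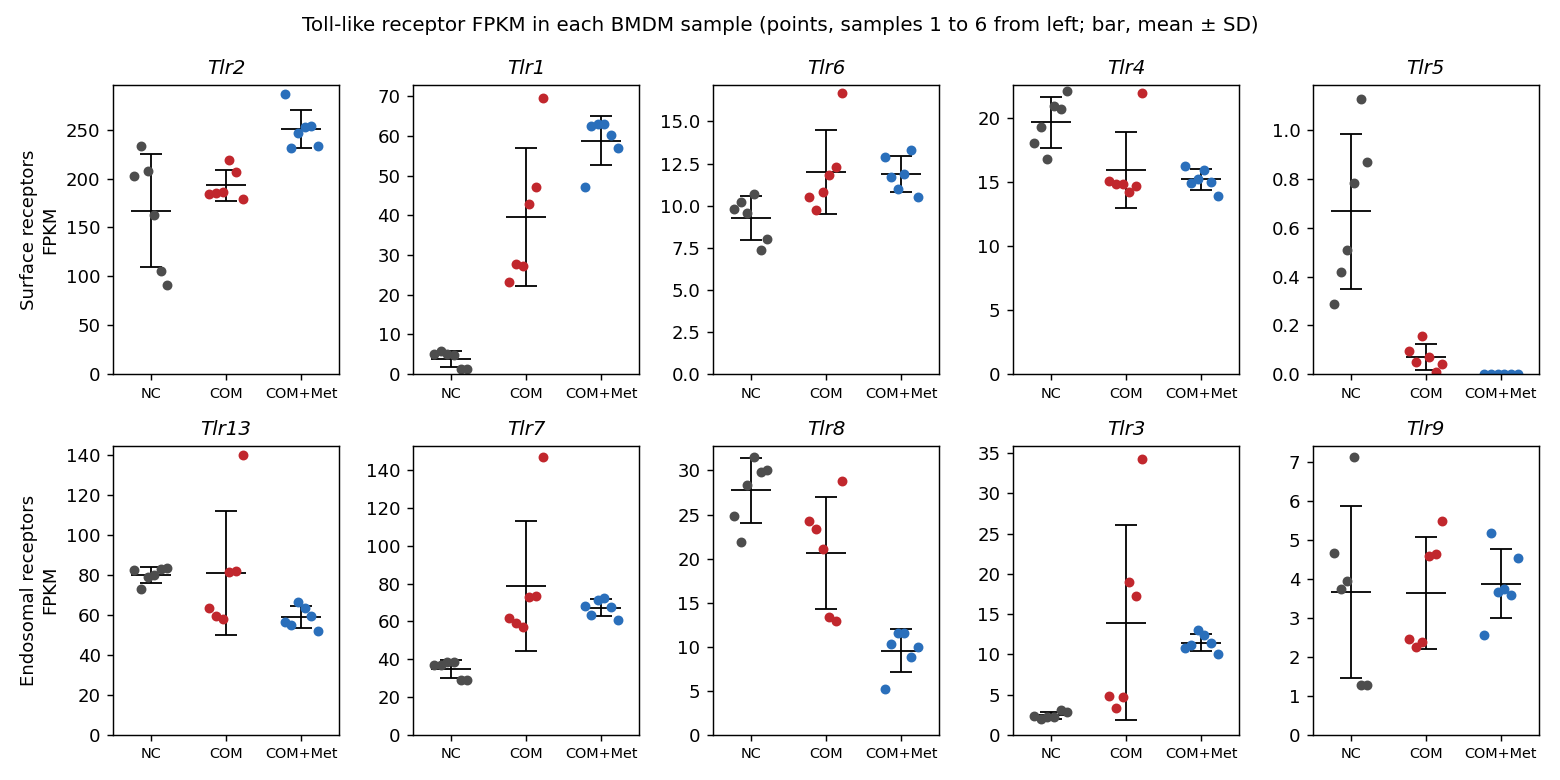
FPKM (vertical axis, a scale for each receptor) in the 18 samples of NC, COM and COM+Met (horizontal axis), with surface receptors above and endosomal receptors below. Points are samples 1 to 6 from left to right and bars are the mean ± SD of 6. Tlr1 is at most 5.83 in NC and at least 23.3 in the other groups, and Tlr8 in COM+Met is at most 11.6, below every COM sample.

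COM against NC compares macrophages above crystal-treated and untreated TECs. Tlr1, Tlr3 and Tlr7 rose, and 0 receptors were called lower (Tlr4 and Tlr8 were lower at an unadjusted limma p below 0.05). These 3 of the 9 receptors that could be tested stand beside 5.99% of all 10900 genes called higher, and 0 of 9 beside 11.7% called lower. The groups of 6 did not overlap for 3 of the 9, against 38.2% of all genes tested. The median gene stood at -0.27, so that a receptor with no change on this scale lay above it, and changes relative to that median are given for the called receptors. With median-of-ratios size factors that median moved to -0.00446, and 859 genes were called higher and 834 lower in place of 653 and 1273, with the same number of receptors (3) called higher. A heatmap picture of the study, of genes it chose on these same samples, includes some of the receptors, so their directions are not independent evidence.

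Tlr1, the Tlr2 partner for triacylated lipopeptides, had the largest rise of the receptors tested. Its FPKM was 1.19 at the lowest, 4.91 at the median and 5.83 at the highest in NC, and 23.3, 35.4 and 69.5 in COM. Every COM sample lay above every NC sample, and the 2 lowest values were those of NC-5 (1.37) and NC-6 (1.19), while COM-4, COM-5 and COM-6 held the 3 highest. The log2 fold change was 3.10 ± 0.35 (SE, limma, adjusted p = 1.5e-05), or 3.37 relative to the median gene, and the ratio of mean FPKM was 10.2. Without NC-5 and NC-6 it was 2.62, and without COM-4, COM-5 and COM-6 it was 2.61, called in both fits.

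Tlr2 itself did not pass the test. Its lowest, median and highest FPKM were 91.4, 183 and 233 in NC and 179, 185 and 219 in COM. NC-5 (105) and NC-6 (91.4) were the low NC samples, and all COM values fell inside the NC range. It changed by 0.29 ± 0.22 (limma, adjusted p = 0.281), and by -0.05 without NC-5 and NC-6.

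Tlr6, the other Tlr2 partner and the neighbour of Tlr1, changed by far less. Its lowest, median and highest FPKM were 7.37, 9.67 and 10.7 in NC and 9.73, 11.3 and 16.7 in COM, and the groups overlapped. The log2 fold change of 0.33 ± 0.13 had an adjusted p of 0.0492 (limma) but was under 2-fold, and 9 of its 24 alternative fits had an adjusted p below 0.05. It was 0.21 without NC-5 and NC-6 and 0.15 without COM-4, COM-5 and COM-6 (limma, adjusted p = 0.231 and 0.267).

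Tlr4, the lipopolysaccharide receptor, was 16.8, 20 and 22.1 FPKM (lowest, median, highest) in NC and 14.2, 14.8 and 21.9 in COM. Of the COM samples, 5 lay below all NC samples and COM-6 lay among them. The group difference was -0.30 ± 0.12 (limma, adjusted p = 0.0429), under 2-fold, and it was -0.03 relative to the median gene. With median-of-ratios size factors it was -0.00428, so its size depended on the scaling. Tlr5 had a mean below 1 FPKM and was left out of the limma test. It lay between 0.287 and 1.13 FPKM in NC (median 0.647) and between 0.00692 and 0.157 in COM (median 0.0589), with no overlap (p = 0.00216 in an exact permutation test, two-sided, which is the minimum for 6 against 6).

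Among the endosomal receptors, Tlr3 rose, with the largest spread within COM. Its lowest, median and highest FPKM were 1.98, 2.25 and 3.12 in NC and 3.37, 11.1 and 34.3 in COM. All COM samples were above all NC samples, but COM-1, COM-2 and COM-3 lay between 3.37 and 4.84 while COM-4, COM-5 and COM-6 lay at 19, 17.3 and 34.3. On the log2 scale the rise was 1.70 ± 0.45 (SE, limma, adjusted p = 0.00704), or 1.97 relative to the median gene. Without COM-4, COM-5 and COM-6 it was 0.62 (limma, adjusted p = 0.00361), under 2-fold.

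Tlr7, the receptor for single-stranded RNA, was 28.8, 36.9 and 38.6 FPKM (lowest, median, highest) in NC and 57, 67.5 and 147 in COM. The lowest COM sample lay above the highest NC sample, and COM-6 was far above the other COM samples. Its log2 fold change was 1.08 ± 0.21 (SE, limma, adjusted p = 0.000851), or 1.35 relative to the median gene. It was 0.88 without COM-6, 0.76 without COM-4, COM-5 and COM-6 and 0.96 without NC-5 and NC-6, each under 2-fold with an adjusted p below 0.05.

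Tlr8, the neighbour of Tlr7, did not rise with it. Its lowest, median and highest FPKM were 21.9, 29.1 and 31.5 in NC and 12.9, 22.3 and 28.8 in COM. COM-4 (13.4) and COM-5 (12.9), which were among the higher COM samples for Tlr1, Tlr3 and Tlr7, were the lowest for Tlr8, and the groups overlapped. It changed by -0.45 ± 0.19 (limma, adjusted p = 0.0586). Tlr9, the CpG DNA receptor, lay between 1.27 and 7.12 FPKM in NC and between 2.25 and 5.49 in COM, and its log2 fold change was 0.08 ± 0.32 (limma, adjusted p = 0.845). Its direction turned without NC-5 and NC-6 (-0.37). Tlr13, the receptor for bacterial ribosomal RNA, lay between 72.8 and 83.4 FPKM in NC and between 57.7 and 140 in COM, at -0.06 ± 0.19 (limma, adjusted p = 0.797). COM-1, COM-2 and COM-3 were below all NC samples, COM-4 and COM-5 (81.6 and 82.1) were inside the NC range and COM-6 was above it. Without COM-4, COM-5 and COM-6 the log2 fold change of Tlr13 was -0.41 (limma, adjusted p = 0.000387), under 2-fold, and with median-of-ratios size factors it was 0.25.

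**Figure D2:**
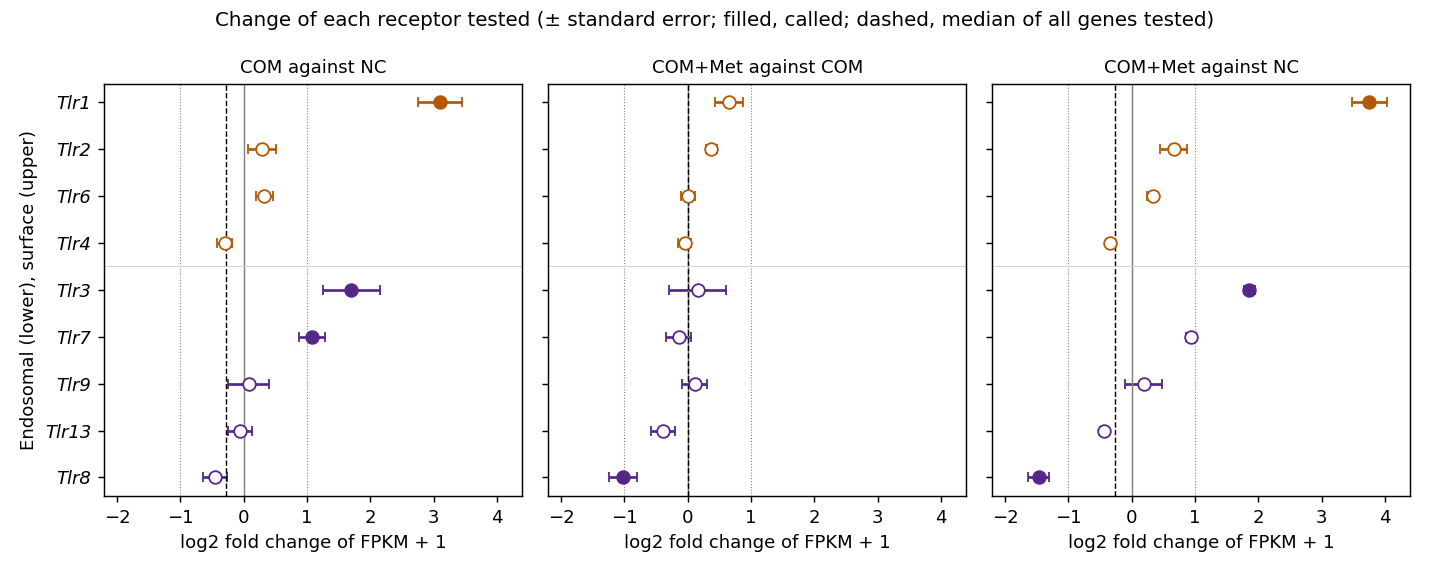
Log2 fold change of FPKM + 1 ± standard error (horizontal axis) of the 9 receptors tested (vertical axis, surface in orange and endosomal in purple) in the 3 comparisons of 6 against 6 samples. Filled points are called, the dashed line is the median of all genes tested and dotted lines mark 2-fold; Tlr1 lies at 3.10 and 3.75 against NC, and Tlr8 at -1.02 against COM and -1.47 against NC.

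COM+Met against COM compares macrophages with and without Met above the same kind of crystal-treated TECs. Tlr8 fell, and 0 of 9 receptors were called higher (Tlr1 and Tlr2 were higher at an unadjusted limma p below 0.05). The background was 1.61% of 10364 genes called lower and 0.608% called higher. The groups did not overlap for 2 of the 9 receptors, Tlr8 and Tlr2, against 11.2% of all genes tested. The median gene stood at 0.00333, and this comparison shares the COM samples with the one above.

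Tlr8 was 5.18 FPKM at the lowest, 10.1 at the median and 11.6 at the highest in COM+Met, and COM+Met-1 held the lowest value. All COM+Met samples lay below all COM samples, whose lowest value was 12.9. The log2 fold change was -1.02 ± 0.22 (SE, limma, adjusted p = 0.0103), close to the 2-fold limit. It stayed past an adjusted p of 0.05 in all 23 alternative fits (-1.22 to -0.80), but a pseudocount of 5 and 5 of the single-sample omissions left it under 2-fold (-0.87 without COM+Met-1, -0.91 without COM-6). Without COM-4, COM-5 and COM-6 it was -1.22.

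Tlr2 was 231, 250 and 286 FPKM (lowest, median, highest) in COM+Met, above all COM samples, of which the highest was 219. The log2 fold change of 0.37 ± 0.09 (SE, limma, adjusted p = 0.0139) was under 2-fold. Tlr1 was 47.3, 61.4 and 63.1 FPKM, and the groups overlapped, with COM-5 (47.2) just under the lowest COM+Met sample and COM-6 (69.5) above the highest. Its log2 fold change was 0.65 ± 0.23 (limma, adjusted p = 0.0756). Without COM-4, COM-5 and COM-6, all 6 COM+Met samples being then above the COM samples kept, it was 1.14 (limma, adjusted p = 1.01e-06), which is past the call.

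Tlr3 was 9.99, 11.3 and 13 FPKM (lowest, median, highest) in COM+Met, and these values lay between the low COM samples (COM-1 to COM-3) and the high ones (COM-4 to COM-6). Tlr3 changed by 0.16 ± 0.45 (limma, adjusted p = 0.849), and it was 1.23 without COM-4, COM-5 and COM-6 (limma, adjusted p = 1.24e-06). Tlr7 was 60.8, 68 and 72.2 FPKM, inside the COM range, at -0.14 ± 0.19 (limma, adjusted p = 0.679), or 0.18 without COM-4, COM-5 and COM-6. Tlr13 was 51.8, 57.9 and 66.5 FPKM, with 3 samples below all COM samples, at -0.38 ± 0.19 (limma, adjusted p = 0.197), or -0.04 without COM-4, COM-5 and COM-6 (limma, adjusted p = 0.683). Tlr4 (13.9 to 16.2 FPKM), Tlr6 (10.5 to 13.3) and Tlr9 (2.56 to 5.17) lay inside or overlapped the COM ranges, with log2 fold changes of -0.05, 0.00 and 0.11 and adjusted p-values from limma between 0.749 and 0.985. Without COM-4, COM-5 and COM-6 they were 0.03, 0.18 and 0.52, with adjusted p-values from limma of 0.658, 0.0462 and 0.00745. Tlr5 was listed at 0 in all 6 COM+Met samples and above 0 in all 6 COM samples (exact permutation test, p = 0.00216), at levels too low for a fold.

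COM+Met against NC compares macrophages above crystal-treated TECs under Met with those above untreated TECs, and it shares samples with both other comparisons. Tlr1 and Tlr3 were called higher and Tlr8 lower, 2 and 1 of the 9 receptors tested, where 5.66% of 10786 genes were called higher and 13.6% lower. The groups did not overlap for 6 of the 9 receptors, against 57.6% of all genes. The median gene stood at -0.26, and size factors moved it to -0.00489, with 827 genes called higher and 1003 lower in place of 611 and 1467. Tlr1 changed by 3.75 ± 0.28 (SE, limma, adjusted p = 7.02e-08), a ratio of 15.1 between the mean FPKM values. Tlr3, with the COM+Met samples in a narrow range, changed by 1.86 ± 0.09 (SE, limma, adjusted p = 9.44e-10). Tlr8 changed by -1.47 ± 0.16 (SE, limma, adjusted p = 2.55e-06), and its NC mean was 2.9 times its COM+Met mean.

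Tlr7, at 0.94 ± 0.08 (limma, adjusted p = 3.52e-07), was just under 2-fold, and it was past it with median-of-ratios size factors (1.23) or quantile normalisation (1.04). Tlr2 (0.66 ± 0.21, limma, adjusted p = 0.0119) and Tlr6 (0.33 ± 0.09, limma, adjusted p = 0.00373) were higher at under 2-fold, and in both 5 of the 6 COM+Met samples lay above all NC samples. Without NC-5 and NC-6 they were 0.32 and 0.22 (limma, adjusted p = 0.00533 and 0.00854). Tlr4 (-0.35 ± 0.06, limma, adjusted p = 0.000318) and Tlr13 (-0.44 ± 0.06, limma, adjusted p = 2.61e-05) were lower at under 2-fold, with all COM+Met samples below all NC samples. Relative to the median gene they were at -0.09 and -0.18. Tlr9 was at 0.19 ± 0.29 (limma, adjusted p = 0.561). Tlr5, listed at 0, lay below all NC samples (exact permutation test, p = 0.00216).

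The surface receptors took a larger part of the summed receptor FPKM in COM+Met. The 10 receptors summed to 270 to 406 FPKM in NC (median 374), 381 to 643 in COM (median 431) and 452 to 507 in COM+Met (median 498). The share of the surface receptors was 45.7% to 66.2% in NC (median 58.3), 44.7% to 62.5% in COM (median 59.9) and 66.9% to 71.6% in COM+Met (median 69.1), so that every COM+Met sample lay above every sample of the other groups. Tlr2 alone was 33.8% to 57.4% of the sum in NC, 27.9% to 48.6% in COM and 49.1% to 56.5% in COM+Met. Leaving Tlr2 out, the surface sum was 30.5 to 37.1 FPKM in NC, 49 to 108 in COM and 76.4 to 90.7 in COM+Met, and the mean of Tlr1 within it went from 3.89 FPKM in NC to 39.7 and 58.9. The endosomal sum was alike in NC (137 to 160 FPKM) and COM+Met (137 to 166), where a higher Tlr7 and Tlr3 stood beside a lower Tlr8 and Tlr13, and it reached 356 in COM-6. These sums and shares are descriptions with no test.

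**Figure D3:**
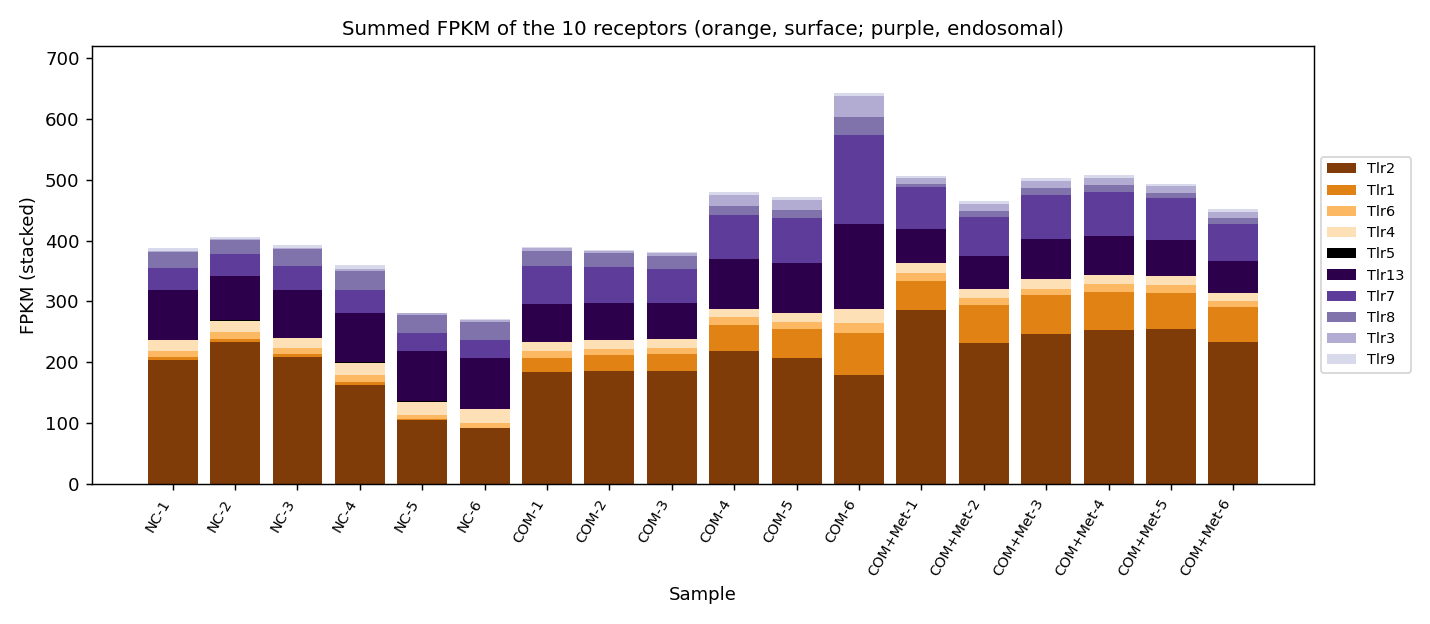
Stacked FPKM of the 10 receptors (vertical axis) in each of the 18 samples (horizontal axis), with surface receptors in orange and endosomal receptors in purple. The sum is 270 in NC-6 and 643 in COM-6, and the orange part is 66.9% to 71.6% in the COM+Met samples.

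Ratios within a sample do not depend on how that sample was scaled. Tlr1 was 0.148 to 0.571 times Tlr6 in NC, 2.21 to 4.16 times in COM and 3.67 to 5.75 times in COM+Met, so the order of the neighbouring genes was the opposite in NC and in both other groups in every sample. Tlr2 was 34.7 to 76.9 times Tlr1 in NC, 2.58 to 7.91 times in COM and 3.69 to 6.04 times in COM+Met. Tlr7 was 0.969 to 1.69 times Tlr8 in NC, 2.54 to 5.69 times in COM and 6.12 to 13.2 times in COM+Met, with no overlap between the 3 groups. The ratio was 2.54 to 2.7 in COM-1 to COM-3 and 5.11 to 5.69 in COM-4 to COM-6. Tlr13 was 1.97 to 2.88 times Tlr7 in NC, 0.949 to 1.12 times in COM and 0.827 to 0.932 times in COM+Met, and these ranges did not overlap either.

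**Figure D4:**
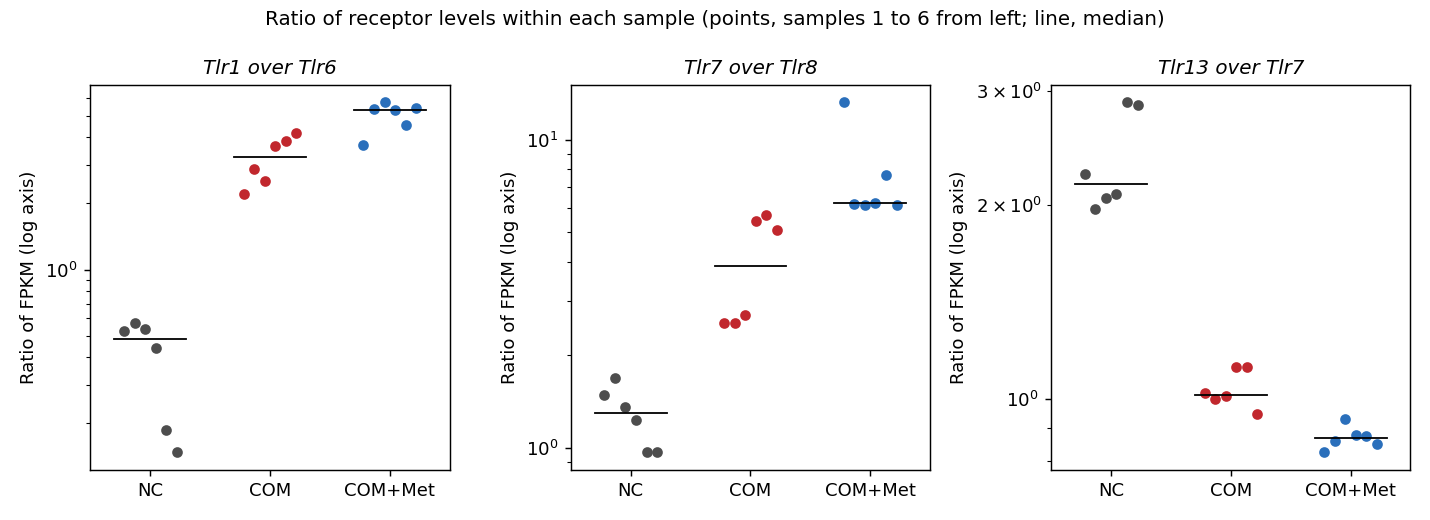
Ratio of FPKM within each sample (vertical axes, log scale) of Tlr1 over Tlr6, Tlr7 over Tlr8 and Tlr13 over Tlr7 in NC, COM and COM+Met. Points are samples 1 to 6 from left to right and lines are medians, which are 0.483, 3.24 and 5.33 for Tlr1 over Tlr6 and 1.29, 3.9 and 6.21 for Tlr7 over Tlr8.

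The spread between samples differed by group. The coefficient of variation of FPKM within COM was 86.8% for Tlr3, 44% for Tlr1, 43.6% for Tlr7 and 38.3% for Tlr13, and within COM+Met it was 9.58%, 10.4%, 6.54% and 9.4%. In NC it was widest for Tlr9 (60.2%), Tlr1 (52.8%) and Tlr2 (34.7%), besides Tlr5 (47.3%). NC-5 and NC-6 held the 2 lowest NC values of Tlr1, Tlr2, Tlr6, Tlr7 and Tlr9. After subtraction of the group means, Pearson correlations over the 18 samples were 0.91 for Tlr3 with Tlr13, 0.885 for Tlr1 with Tlr9, 0.878 for Tlr6 with Tlr7 and 0.877 for Tlr7 with Tlr13, and -0.431 for Tlr2 with Tlr4. These are descriptions over samples that share the same few outlying libraries, and COM-6 is high for each of Tlr3, Tlr6, Tlr7 and Tlr13.

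Among 10323 other genes, the 3 whose log2(FPKM + 1) followed each receptor most closely over the 18 samples were named by Pearson r, as a description. They were Ms4a7 (0.994), Parp14 and Gbp2 (both 0.992) for Tlr1, where Gbp2 encodes an interferon-induced GTPase. For Tlr3 they were Ifi214 (0.987), Tnfsf10 (0.979), which encodes the death ligand TRAIL, and the interferon-gamma-induced chemokine Cxcl9 (0.978). For Tlr2 they were Ptx3 (0.947), Tnf (0.944) and Tnfsf9 (0.943), of which Ptx3 encodes a secreted pentraxin and Tnf the cytokine tumour necrosis factor. For Tlr7 they were Ascc3 (0.99), C130026I21Rik (0.989) and Tlk2 (0.975), and for Tlr8 Lnpep (0.969), Qk (0.963) and Tbc1d23 (0.953). Tlr4 was followed by Ccng1 (0.965), Haus3 (0.952) and Suz12 (0.951), Tlr6 by Il7r and Med13 (both 0.935) and Ifi207 (0.933), and Tlr13 by Irf2 (0.911), Rap1b (0.905) and Ppp2r5a (0.895). Tlr9 had the loosest neighbours, Csf3r (0.9), the receptor for granulocyte colony-stimulating factor, Cd300ld4 (0.858) and Dennd1b (0.855). After subtraction of the group means these genes correlated with their receptor at 0.826 (Qk with Tlr8) to 0.969 (C130026I21Rik with Tlr7), over the same 18 samples. The genes were picked by their correlation in these samples, so that range is no separate check. The samples that stood apart within NC and COM also enter it.

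Genes that work with the receptors were described from lists. Of 5 surface co-receptor genes tested in COM against NC, Cd14 rose and Cd36 fell, where 5.99% of all genes tested were called higher and 11.7% lower. Cd14, which hands lipopolysaccharide to Tlr4 and lipopeptides to Tlr2, was 64.7 ± 38.8 FPKM in NC, 401 ± 95.8 in COM and 378 ± 17.4 in COM+Met (SD, n = 6), a log2 fold change of 2.86 ± 0.43 in COM (limma, adjusted p = 0.000141). Cd36, a scavenger receptor and partner of Tlr2 with Tlr6, was 171 ± 66.1, 74.8 ± 33.9 and 25.1 ± 2.9 FPKM, a log2 fold change of -1.24 ± 0.32 in COM against NC (limma, adjusted p = 0.00646) and of -1.41 ± 0.27 in COM+Met against COM (limma, adjusted p = 0.00507). It was the only gene called in COM+Met against COM among the 47 co-receptor, trafficking, signalling and regulator genes tested. Of all genes tested there, 1.61% were called lower and 0.608% higher, so 1 of 47 is near the share of all genes. In COM+Met against NC, Ly86, a binding partner of Cd180, was called higher (2.45 ± 0.28, limma, adjusted p = 3.37e-06), as was Cd14, and Cd36 was called lower. These were 2 higher and 1 lower of the 5 tested, beside 5.66% and 13.6% of all genes.

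Of 12 genes for the chaperones, transporters and proteases that carry receptors to endosomes and cut them there, 0 were called in COM against NC or in COM+Met against COM, and 7 and 3 of them had an adjusted p below 0.05 (limma), beside 53.3% and 13.4% of all genes tested. In COM+Met against NC, where 7 of the 12 and 75.2% of all genes had an adjusted p below 0.05, Ctsb, a lysosomal protease, was called higher (1.43 ± 0.05, limma, adjusted p = 4.32e-11), with means of 651, 1120 and 1760 FPKM in NC, COM and COM+Met. Unc93b1, the chaperone that the endosomal receptors need, was chosen for mention after its values were seen. It was 190 ± 39.8, 242 ± 63.9 and 255 ± 14.1 FPKM in the 3 groups (SD, n = 6), at 0.32 ± 0.23 in COM against NC (limma, adjusted p = 0.253). Other genes of the list, chosen in the same way, moved in both directions. Slc15a4 went from 26.9 ± 2.61 FPKM in NC to 13.4 ± 3.01 in COM, and Ap3d1 from 56.8 ± 3.95 to 32.9 ± 1.44. Ctsb and Ctss had higher means in COM (1120 and 3190) than in NC (651 and 2330).

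Of 24 adaptor and signalling genes tested, Irf7 and Peli1 were called higher in COM against NC, Irf7 and Pik3ap1 in COM+Met against NC, and 0 in COM+Met against COM, with 0 called lower in each. Of all genes, 5.99% were called higher and 11.7% lower in COM against NC, and 5.66% and 13.6% in COM+Met against NC. The shares in COM+Met against COM were 0.608% and 1.61%. In COM against NC and in COM+Met against NC, 10 and 20 of the 24 had an adjusted p below 0.05 (limma), beside 53.3% and 75.2% of all genes tested. Irf7, a transcription factor of the interferon response downstream of Tlr7 and Tlr9, was 8.52 ± 4.22, 594 ± 193 and 578 ± 15.9 FPKM (SD, n = 6), a log2 fold change of 6.05 ± 0.32 in COM (limma, adjusted p = 3.62e-08). Peli1, a ubiquitin ligase, changed by 1.11 ± 0.21 (limma, adjusted p = 0.000874), and Pik3ap1, a signalling adaptor, by 1.00 ± 0.06 in COM+Met against NC (limma, adjusted p = 5.35e-09). Myd88, mentioned after its values were seen, was 58.5 ± 8.33, 54.1 ± 7.41 and 47.5 ± 2.71 FPKM, at -0.11 ± 0.13 in COM against NC (limma, adjusted p = 0.477). Of 6 negative regulators tested, Socs1 (2.26 ± 0.40, limma, adjusted p = 0.000535), Tnfaip3 (1.51 ± 0.40, limma, adjusted p = 0.00649) and Irak3 (1.28 ± 0.26, limma, adjusted p = 0.00141) were called higher in COM against NC, beside 5.99% of all genes. In that comparison 4 of the 6 had an adjusted p below 0.05 (limma), beside 53.3% of all genes. Tollip, mentioned after its values were seen, went the other way and was not called. It was 36.6 ± 2.09, 22.4 ± 2.92 and 24.3 ± 0.855 FPKM in NC, COM and COM+Met (SD, n = 6). The regulators called higher in COM+Met against NC were Socs1, Tnfaip3 and Nfkbia (1.08 ± 0.22, limma, adjusted p = 0.000686), beside 5.66% of all genes. In COM against NC the lists' medians were 0.66 for the co-receptors, 0.25 for the trafficking genes, 0.10 for the adaptors and 0.96 for the negative regulators, beside -0.27 for all genes.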

How the data were processed

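BMDM RNA-seq of 3 groups of 6 samples was analysed, grouped by the sample labels, with all 18 sample columns in use. The authors deposited FPKM values for 25926 genes (22036 with an Ensembl identifier), scaled to gene length and sample total, per replicate. The submitters' notes list Bowtie 0.12.2, mm8 and mm9 but no role for each. Quantifier, annotation and strand setting are not given in the sources read here. Whole reads could not be recovered: the most common ratio of values below 0.5 FPKM was shared by only 0.183% to 0.322% of genes. Depth and counting intervals are therefore unknown.

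On log2(FPKM + 1), genes averaging 1 FPKM or more over the 12 samples of a comparison were tested with limma 3.58.1 (lmFit, eBayes with trend; R 4.3.3) and Benjamini-Hochberg adjustment over every gene tested. Calls required an adjusted p below 0.05 and 2-fold or more. Each receptor also had an unadjusted, two-sided exact permutation test. The procedure was run on simulated data with noise drawn independently for each gene and sample. That run holds no samples that stand apart, so it cannot show how such samples affect the calls. Python 3.11.15, pandas 2.3.3, scipy 1.17.1, numpy 2.4.6 and matplotlib 3.10.9 were used. The receptors and gene lists were chosen with earlier results of these data known. The text names all 10 receptors, the 3 genes most correlated with each, and of each list the called genes, at most 6 by size. Some list genes that were not called are named as well.

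Alternatives were pseudocounts 0.1 and 5, no filter or 5 FPKM, equal sums (TPM), size factors, quantile normalisation, arrayWeights, 1 fit of all 18 samples, the replicate block, and omitted samples.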

Additional observations from a re-analysis of the deposited data

Results flagged for a closer look

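Within groups of 6, a receptor's highest or lowest sample was set against the others by Dixon's ratio on log2(FPKM + 1). Of 29 groups, 4 had a sample far from the rest, where chance gives about 1 in 20 for a single group. The 29 groups share the same 18 samples, and receptors vary together across them. They are therefore not independent trials, and an excess over chance was not tested. COM-6 was the far sample for Tlr7 (147 FPKM, ratio 0.735) and for Tlr4 (21.9 FPKM, ratio 0.861), the only COM sample of Tlr4 inside the NC range. COM+Met-1 was the far sample for Tlr1 (47.3 FPKM, ratio 0.654) and for Tlr8 (5.18 FPKM, ratio 0.646), the lowest of its group in both. The cause of these values was not tested.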

How the results depend on the processing

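Of 27 receptor changes, 19 kept their direction in every alternative and 14 also their side of the call, and the cause was not tested for the others. Tlr1, Tlr3 and Tlr8 in COM+Met against NC, and Tlr1 in COM against NC, were called in every alternative. A pseudocount of 5 left 980, 90 and 1117 genes called in COM against NC, COM+Met against COM and COM+Met against NC (1926, 230 and 2078 in the main fits), with 0 receptors lower in COM+Met against COM. A pseudocount of 0.1 gave 370 genes in COM+Met against COM. With arrayWeights 719 genes were called there, and without COM-4, COM-5 and COM-6 771, with 2 receptors (Tlr1 and Tlr3) called higher in each. In COM against NC both settings left 1 receptor called higher, Tlr1. Leaving out single samples gave 0 to 1 receptors lower in COM+Met against COM.

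Directions turned only for receptors that were not called. In COM against NC, Tlr13 was 0.246 with size factors and -0.232 to 0.0206 over single-sample omissions, Tlr2 was -0.0721 with arrayWeights and -0.0544 without NC-5 and NC-6, and Tlr9 was -0.591 with arrayWeights, -0.365 without NC-5 and NC-6, -0.326 without COM-4, COM-5 and COM-6 and -0.1 to 0.268 over omissions. In COM+Met against COM, Tlr6 was -0.039 with equal sums, Tlr4 was 0.0241 and Tlr7 0.173 with arrayWeights, and they were 0.0269 and 0.175 without COM-4, COM-5 and COM-6. Over single-sample omissions there, Tlr4 was -0.0751 to 0.0429, Tlr6 -0.0472 to 0.0978, Tlr3 -0.112 to 0.491 and Tlr7 -0.215 to 0.056. In COM+Met against NC, Tlr9 was -0.0831 with arrayWeights and -0.252 without NC-5 and NC-6.

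Same-numbered samples did not deviate together (correlations of -0.222 to 0.0569, 0 of 6 pairs over 0.1 in each comparison). The check cannot tell whether same-numbered samples shared a mouse or culture, as samples that stood apart within a group weigh on these deviations. Samples that correlated best with their own number were 0, 0 and 1 of 12 in the 3 comparisons. With the replicate block, 1920, 202 and 2080 genes were called, and the receptor counts were 3 higher and 0 lower, 0 and 1, and 2 and 1, as without it. The block moved the adjusted p (limma) of Tlr2 in COM+Met against COM from 0.0139 to 0.0754. That of Tlr6 in COM against NC went from 0.0492 to 0.113. As depth is unknown, so is the precision of low values such as those of Tlr5.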
